A study of Homo sapiens with 24 samples.

Results

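The genes described here are 4 receptors of the ERBB and MET families and 6 ligands, taken by name. They are 10 of the 57500 gene identifiers counted in each library. The receptors are EGFR, ERBB2, ERBB3 and MET, and the ligands are AREG, EREG, HBEGF, TGFA, NRG1 and HGF. They were measured in H2052, a human line of pleural mesothelioma, the cancer that grows from the lung's outer lining. A microRNA mimic with a 3′ biotin was transfected at 20 nM. The treated cells received miR-497-5p, written miR-497-5p-RE in the labels with no meaning given for the suffix, and the control cells received a scrambled sequence. RNA was collected at 12 h and at 72 h, both from the cells (the input, called RNA-seq here) and from what streptavidin beads retained out of a cytoplasmic extract (the pull-down). The 2 assays, 2 times and 2 mimics gave 8 groups of 3 libraries, 24 in all. All of them come from 1 cell line, and all were made from poly(A) RNA.

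ERBB receptors are tyrosine kinases of the cell surface that signal as dimers. AREG, EREG, HBEGF and TGFA are made as membrane-bound precursors, are shed by ADAM proteases and activate EGFR, while NRG1 binds ERBB3 and ERBB4. ERBB2 has no known soluble ligand and serves as the favoured dimer partner, ERBB3 has a weak kinase and couples to PI3 kinase, and MET is the receptor of HGF, a factor made mainly by stromal cells. Both families feed the RAS-ERK and PI3K-AKT cascades, and EGFR and MET are commonly present in pleural mesothelioma. A microRNA guides Argonaute proteins to transcripts through its seed, bases 2 to 8, and lowers the amount or the translation of those it binds, most often through sites in the 3′ UTR.

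The natural hsa-miR-497-5p is shown with 3 relatives that carry the same seed, written in capitals, since all of them pair with the same sites. The sequences are those of RefSeq (GRCh38.p14).
hsa-miR-497-5p: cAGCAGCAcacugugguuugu
hsa-miR-195-5p: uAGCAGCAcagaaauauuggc
hsa-miR-15a-5p: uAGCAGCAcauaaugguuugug
hsa-miR-16-5p: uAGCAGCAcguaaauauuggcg

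Sites for this seed were searched on the sense strand of the longest 3′ UTR of each gene in GENCODE release 44 (GRCh38). The letters were TGCTGCT (a 7mer-m8 site), TGCTGCTA (8mer), GCTGCTA (7mer-A1) and GCTGCT (6mer). The shorter motifs lie within the longer ones, and each place was counted once, as its longest form. Of the 10 genes, EGFR and HGF held a match in that UTR, and the other 8 did not have these letters there. Over all 19040 genes with a 3′ UTR, 4375 (23.0%) held a 7mer-m8 or 8mer site and 42.7% held a match of any kind. The EGFR UTR of 6011 bases held 3 matches, present in 2 of its 7 coding transcripts. They are shown because EGFR is the only gene of the set that both had a match there and passed the filter on low counts. Each is written 5′ to 3′ with the matched letters in capitals, on the plus strand of chromosome 7 at chr7:55206602-55206631, chr7:55209479-55209508 and chr7:55210792-55210821.
EGFR 6mer: agatcagaagactacaaaaatgaaGCTGCT
EGFR 7mer-A1: tctcttccctcctttgtgagtgaGCTGCTA
EGFR 7mer-m8: ctagtaataaaatataatattctTGCTGCT

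Coding sequence was searched in 1 transcript per gene, and the share of all genes with matches there was not counted. Further matches of 7 letters lay in the coding sequence of EGFR, ERBB3, AREG, EREG, HBEGF and HGF, and none in that of ERBB2, MET, TGFA or NRG1. Those of the 5 genes that passed the filter on low counts are all shown, so that none is picked for its pull-down value. They lie in EGFR (exon 17 of 28, chr7:55173007-55173036), ERBB3 (exons 20 and 21 of 28, chr12:56097176-56097205 and chr12:56097896-56097925), AREG (exon 1 of 6, chr4:74445334-74445363, and exon 2, where the matched letters are chr4:74446541-74446547 and the bases before them run back across the exon junction), EREG (exon 1 of 5, chr4:74365338-74365367) and HBEGF (exon 2 of 6, minus strand, chr5:140345978-140346007). A match is a description of the letters and was not tested for binding.
EGFR coding 7mer-m8: tgggatggtgggggccctcctctTGCTGCT
ERBB3 coding 7mer-m8: ccggggggcactggggccacagcTGCTGCT
ERBB3 coding 7mer-A1: ctgctgcctcctgatgataagcaGCTGCTA
AREG coding 7mer-A1: tgcgaaggaccaatgagagccccGCTGCTA
AREG coding 7mer-m8: ttgatactcggctcaggccattaTGCTGCT
EREG coding 7mer-m8: ctgtgccggcagggtccctgcgcTGCTGCT
HBEGF coding 7mer-A1: cctcccactgtatccacggaccaGCTGCTA

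RNA-seq libraries held 21561816 to 30602007 counts, and pull-down libraries held 8262425 (miR-497-5p at 72 h, replicate 2) to 30650982. Libraries of 1 group differed by more than counting error in both assays, and the biological coefficient of variation was 0.06 in RNA-seq and 0.349 in the pull-down. Whether replicates came from separate cultures is not stated. The p-values therefore describe the spread of these samples alone, and that spread may be technical. Of 12 mesothelial markers 11 or 12 had reads in every RNA-seq library, among them MSLN at 42.7 to 80.4 and WT1 at 8.79 to 24 CPM (counts over the library total, on a common scale). CALB2 stayed at 0.622 to 2.16, UPK3B at 0.0759 to 0.603 and ITLN1 at 0 to 0.0383 CPM. A list of 30 squamous epithelium markers summed to 157.3 to 1317 CPM in the RNA-seq libraries and to 163.3 to 1243 in the pull-down libraries of 12 h, with 26 to 30 of the genes having reads. At 72 h it summed to 163.1 to 188.9 in RNA-seq, KRT10 giving 145 to 154 in control cells, and to 53.24 to 77.48 in the pull-down. KRT6A and KRT14 were at 0 in the control RNA-seq libraries of 72 h.

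Levels between genes were compared in RPKM, which divides counts by library size and by the length of all annotated exons of a gene. Which transcripts were expressed was not measured, so the order of genes close in RPKM may depend on that length. In RNA-seq of control cells at 12 h the order was HBEGF (8.88 to 9.89 RPKM), MET (8.38 to 8.79), TGFA (5.69 to 6.24), EGFR (5.45 to 5.57), ERBB2 (4.78 to 5.14), NRG1 (4.42 to 4.71), ERBB3 (0.862 to 0.993), AREG (0.589 to 0.782) and EREG (0.0771 to 0.202), with no overlap between neighbours. HGF had 0 to 4 counts in each of the 24 libraries and was not tested. In control cells at 72 h TGFA (9.76 to 9.99 RPKM) and HBEGF (9.38 to 10.3) were highest and overlapped, as did EGFR (3.46 to 4.11) and MET (3.31 to 3.74), and ERBB3 (0.257 to 0.274) and AREG (0.177 to 0.326). With miR-497-5p at 72 h MET (10.3 to 11.4 RPKM) overlapped TGFA (10.3 to 11.9), HBEGF (6.4 to 7.17) overlapped NRG1 (6.18 to 6.78), and ERBB2 (2.09 to 2.19) was the lowest of the genes above 1 RPKM. With miR-497-5p at 12 h ERBB2 (4.72 to 5.56 RPKM), NRG1 (4.81 to 5.04) and EGFR (4.73 to 4.95) overlapped one another.

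**Figure D1:**
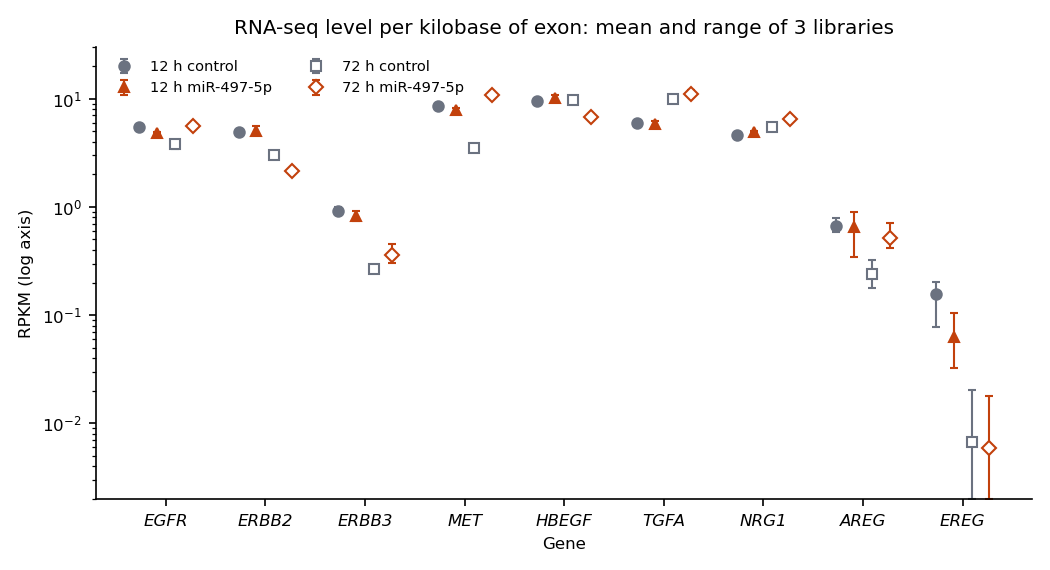
RNA-seq level of each gene per kilobase of exon (RPKM, log axis) in the 4 RNA-seq groups; points are means and bars the range of 3 libraries. MET moves from 3.31 to 3.74 RPKM in control cells at 72 h to 10.3 to 11.4 with miR-497-5p; EREG bars that touch the axis floor include libraries at 0, and HGF is not drawn.

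In RNA-seq at 12 h miR-497-5p left most of the set within the spread of its libraries. Genes count as called at an adjusted p under 0.05 in edgeR's quasi-likelihood test, which held for 1 of the 9 genes tested, against 12.5% of all 17335 genes tested. EGFR stood at 68.4, 69.6 and 68.2 CPM (from here on scaled by TMM) in the control libraries and at 60, 62 and 59.1 with miR-497-5p. All 3 treated libraries lay below all 3 controls, and EGFR fell from 68.8 ± 0.76 to 60.3 ± 1.46 CPM (SD, n = 3 each), a log2 fold change of -0.19 ± 0.049 (SE; edgeR adjusted p 0.00649). It passed under 13 of 14 alternatives, the exception being a replicate block with an offset for transcript length (-0.11, edgeR adjusted p 0.136). In RNA of whole cultures, fewer cells with a transcript and less of it per cell cannot be told apart.

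The other receptors did not pass at 12 h. MET had 59.2, 59 and 61.9 CPM in control against 51.6, 57.4 and 56.3 with miR-497-5p, groups that did not overlap, with a log2 fold change of -0.12 ± 0.052 (edgeR adjusted p 0.127). With scaling by library totals its value was -0.17 and it passed (edgeR adjusted p 0.0232). ERBB2 (0.03 ± 0.057, 95% interval -0.09 to 0.14) and ERBB3 (-0.14 ± 0.13, -0.38 to 0.11) overlapped between the mimics. Among the ligands the log2 fold changes ran from -0.04 for AREG to 0.11 for NRG1 (95% interval 0.02 to 0.2, edgeR adjusted p 0.136), leaving EREG aside. The NRG1 groups did not overlap either, with 50.1 to 53.4 CPM in control against 54.5 to 57.1 with miR-497-5p. For RNA-seq at 12 h the share of all genes with such groups is not given here. EREG had 33, 35 and 15 counts in control against 7, 17 and 6 with miR-497-5p (-1.32 ± 0.51, edgeR adjusted p 0.0883). Its groups overlapped, and it passed without control replicate 3 (edgeR adjusted p 0.0417) and without miR-497-5p replicate 2 (0.0333). The summed squamous markers of the same libraries, in the same order, were 976.7, 875.4 and 337.5 in control against 1317, 157.3 and 333.2 CPM with miR-497-5p, and their part in the EREG values was not tested.

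Most of the set changed by 72 h. Of the 9 genes tested 8 were called in RNA-seq, 6 higher and 2 lower, where 57.5% of all genes tested were called, 27.9% higher and 29.6% lower. The median log2 fold change was 0.23 over the 9 genes and 0 over all genes tested. All 4 receptors passed, and with scaling by library totals the count for the 9 genes was 6, since ERBB3 and TGFA no longer passed.

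MET, the HGF receptor, moved most among the receptors. It was read at 23.3, 26.4 and 24.4 CPM in control libraries and at 73.2, 80.1 and 72.8 with miR-497-5p. The groups lay far apart, and MET rose 3.05-fold, from 24.7 ± 1.55 to 75.4 ± 4.11 CPM (log2 fold change 1.61 ± 0.057, edgeR adjusted p 1.32e-27). By p-value it ranked 112 of the 17335 genes tested.

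EGFR had 51.4, 48.2 and 43.2 CPM in control against 68.5, 70.6 and 70.3 with miR-497-5p. The control libraries spread more than the treated ones and all lay below them, so EGFR was 1.47-fold higher (0.55 ± 0.051, edgeR adjusted p 6e-13), opposite to its direction at 12 h. ERBB2, the dimer partner, had 31.1, 31.2 and 30.5 CPM in control against 22.7, 21.5 and 22.6 with miR-497-5p. Within each mimic its libraries nearly coincided, and ERBB2 fell 1.39-fold (-0.47 ± 0.065, edgeR adjusted p 1.76e-08). Exons of MIEN1 on the opposite strand cover 5.5% of its exon bases and those of PGAP3 1.9%, and whether counting used strand is not stated.

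ERBB3 was low at this time. It had 57, 58 and 57 counts (2.3, 2.23 and 2.37 CPM) in control and 56, 74 and 54 (2.86, 3.91 and 2.61 CPM) with miR-497-5p, where replicate 2 stood above the others. The groups did not overlap in CPM, and ERBB3 was called higher (0.44 ± 0.17, edgeR adjusted p 0.0252). Without miR-497-5p replicate 2 the value was 0.25 (edgeR adjusted p 0.26), and the call was also lost without control replicate 1 (0.053) or control replicate 2 (0.0657), with library totals (0.0954) and with no filter on low counts (0.0717).

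**Figure D2:**
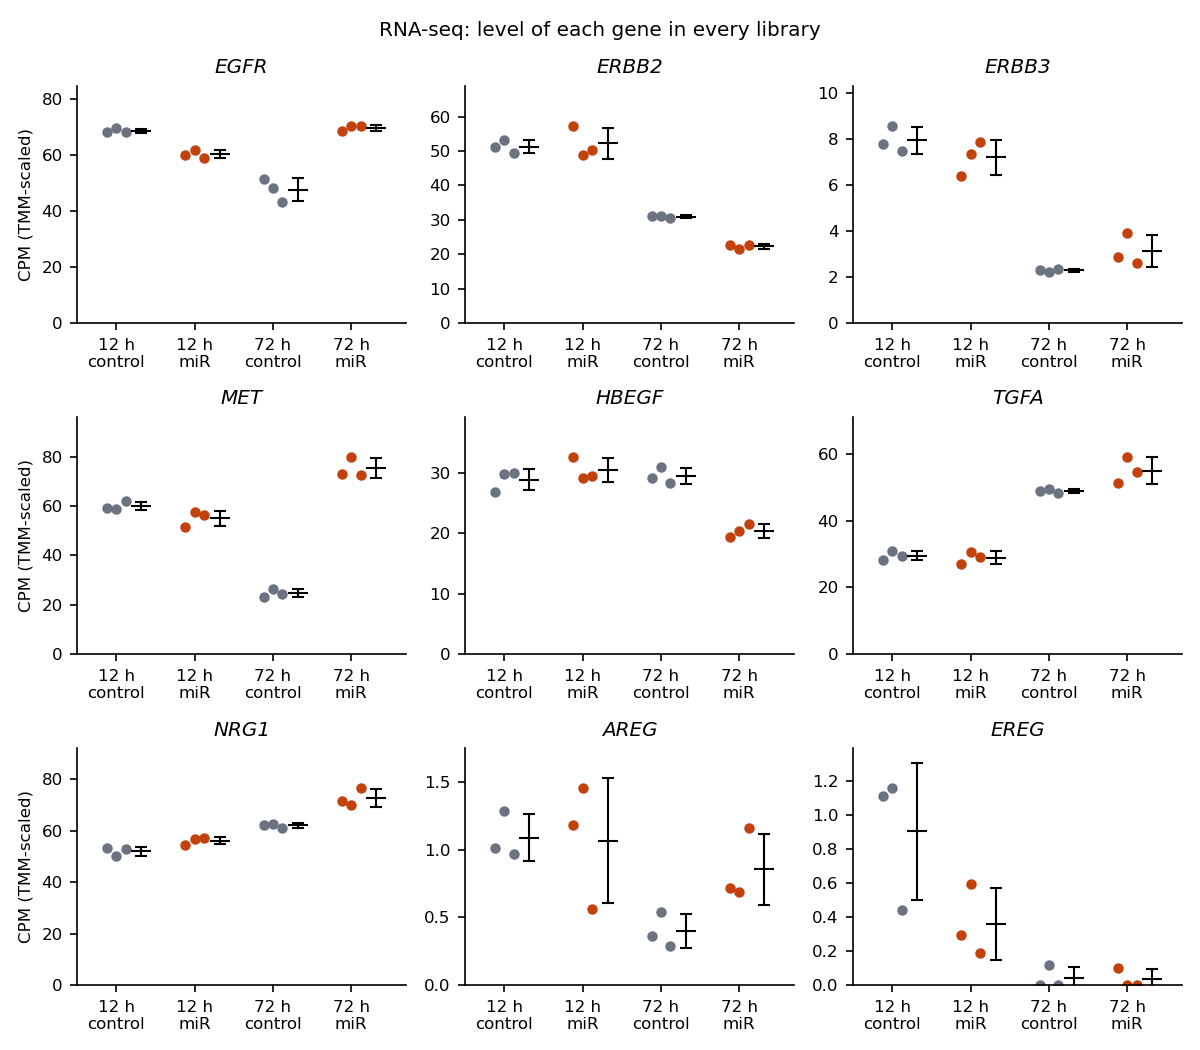
RNA-seq level in TMM-scaled CPM (linear axis from 0) of 9 genes in every library, by time and mimic; points are libraries, and the bar is the mean ± SD of 3. In the 72 h columns the treated libraries of MET (72.8 to 80.1 CPM) and EGFR (68.5 to 70.6) lie above the controls, and those of ERBB2 (21.5 to 22.7) and HBEGF (19.3 to 21.6) below them; bars are clipped at 0.

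Of the EGFR ligands, HBEGF fell and AREG and TGFA rose by smaller or less certain amounts. HBEGF had 29.2, 31 and 28.3 CPM in control against 19.3, 20.4 and 21.6 with miR-497-5p. Every treated library lay below every control, and HBEGF fell from 29.5 ± 1.39 to 20.5 ± 1.15 CPM (-0.53 ± 0.07, edgeR adjusted p 8.83e-09). TGFA, with 48.9, 49.6 and 48.4 CPM in control against 51.2, 59.3 and 54.5 with miR-497-5p, was called higher by a small margin (0.17 ± 0.059, edgeR adjusted p 0.0146). That call was lost with library totals (0.06, edgeR adjusted p 0.43), with no filter (0.0656), without control replicate 3 (0.0561) and without miR-497-5p replicate 2 (0.11, adjusted p 0.151).

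AREG rested on few reads, 9, 14 and 7 counts in control against 14, 13 and 24 with miR-497-5p. In CPM the groups did not overlap (0.291 to 0.538 against 0.688 to 1.16), and AREG was called higher (1.09 ± 0.42, edgeR adjusted p 0.0233). The call was lost without control replicate 1 (edgeR adjusted p 0.0629), control replicate 3 (0.092) or miR-497-5p replicate 3 (0.157). EREG had 0, 3 and 0 counts in control against 2, 0 and 0 with miR-497-5p, too few for a fold.

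NRG1, the neuregulin that binds ERBB3, was read at 62.4, 62.8 and 61.1 CPM in control libraries and at 71.4, 70 and 76.8 with miR-497-5p. It was higher in all 3 treated libraries (0.23 ± 0.048, edgeR adjusted p 6.51e-05). HGF had 0 counts in the 3 control libraries and 1 count in total with miR-497-5p. Groups of the set that did not overlap numbered 8 of 9 tested, against 63.7% of all genes tested.

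The difference between the effects at 72 h and at 12 h was tested by itself. It passed for 5 of the 9 genes, against 48.8% of all genes tested. The effect was higher at 72 h for MET by 1.73 ± 0.077 on the log2 scale (edgeR adjusted p 2.68e-23), for EGFR by 0.74 ± 0.071 (2.79e-12) and for ERBB3 by 0.57 ± 0.21 (0.0218). It was lower at 72 h for ERBB2 (-0.50 ± 0.086, edgeR adjusted p 3.24e-06) and for HBEGF (-0.61 ± 0.096, 6.13e-07). The ERBB3 difference did not pass without miR-497-5p replicate 2 of 72 h (0.40, edgeR adjusted p 0.145), without miR-497-5p replicate 1 of 12 h (0.0615), without control replicate 2 of 12 h (0.0587) or with the replicate block and length offset (0.47, adjusted p 0.0658). For AREG (1.13 ± 0.54, edgeR adjusted p 0.0791), TGFA (0.19 ± 0.085, 0.0586) and NRG1 (0.12 ± 0.068, 0.152) it did not pass, though TGFA did so under 7 of 19 alternatives (0.13 to 0.25 over all 19, edgeR adjusted p 0.0144 to 0.217).

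The RNA-seq libraries of control cells themselves differed between 12 h and 72 h, and the receptors were all lower at 72 h. Of the 9 genes tested 8 were called, 6 lower and 2 higher at 72 h, where 74.4% of all genes tested were called, 38.4% lower and 36.1% higher. With library totals the split was 7 lower and 1 higher. MET fell from 60 ± 1.61 to 24.7 ± 1.55 CPM (-1.28 ± 0.056, edgeR adjusted p 1.05e-24). With miR-497-5p at 72 h it stood at 75.4 ± 4.11 CPM, above both with TMM scaling. Treated libraries of 72 h were not tested against control libraries of 12 h, and over library totals these MET groups overlapped. EGFR fell from 68.8 ± 0.76 to 47.6 ± 4.11 CPM (-0.53 ± 0.05, edgeR adjusted p 5.43e-13). With TMM scaling its treated libraries of 72 h, at 68.5 to 70.6 CPM, overlapped the control libraries of 12 h, at 68.2 to 69.6. Over library totals every one of these treated EGFR libraries lay below every control library of 12 h, so this likeness depends on the scaling.

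ERBB2 fell from 51.2 ± 1.86 to 30.9 ± 0.369 CPM in control cells (-0.73 ± 0.059, edgeR adjusted p 4.58e-15) and was lower again with miR-497-5p. ERBB3 fell from 7.95 ± 0.582 to 2.3 ± 0.072 CPM (-1.79 ± 0.15, edgeR adjusted p 5.58e-15) and AREG from 1.09 ± 0.175 to 0.397 ± 0.127 (-1.43 ± 0.39, 0.00108). EREG fell from 33, 35 and 15 counts to 0, 3 and 0 (edgeR adjusted p 2.48e-06). The squamous markers fell over the same libraries, from 337.5 to 976.7 down to 163.1 to 174.4 CPM. Their part in the ERBB3, AREG and EREG values, or in those of the other genes of the set, was not tested.

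TGFA went the other way in control cells, from 29.5 ± 1.36 to 49 ± 0.578 CPM (0.73 ± 0.06, edgeR adjusted p 4.49e-15). NRG1 was called higher (0.25 ± 0.048, edgeR adjusted p 7.7e-06), and HBEGF stood at 28.8 ± 1.74 and 29.5 ± 1.39 CPM (0.03 ± 0.066, 95% interval -0.09 to 0.16). Library totals moved the median of all genes by -0.25 and upper-quartile scaling by 0.14. NRG1 was then 0.00 (edgeR adjusted p 0.932) with library totals, and HBEGF -0.21 (0.003) with library totals and 0.17 (0.0164) with the upper quartile. The comparisons with miR-497-5p at 72 h share these control libraries.

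In the pull-down at 12 h none of the 9 genes tested was called by edgeR, and none by DESeq2, against 0.595% of all 17477 genes tested by edgeR. None had an unadjusted p under 0.05, the nearest being EREG at 0.0513. EREG had 0, 3 and 17 counts in the control pull-down and 54, 71 and 56 with miR-497-5p. Over the group that is 0.318 CPM in control and 2.38 with the mimic, with every treated library above every control (edgeR adjusted p 0.5).

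AREG had 1.08, 1.4 and 1.38 CPM in the control pull-down and 3.12, 3.89 and 4.34 with miR-497-5p, again without overlap (1.55 ± 0.85, edgeR adjusted p 0.577). EGFR, the gene with the 3′ UTR matches, had 26.4, 26.5 and 29.7 CPM in control against 33.7, 35.8 and 35.5 with miR-497-5p (0.35 ± 0.21, adjusted p 0.631). Of the 9 genes these 3 had groups that did not overlap, where 16.4% of all genes tested did. The squamous markers of these libraries, in the same order, summed to 163.3, 307.7 and 848.2 CPM in control and to 1243, 802.5 and 282.8 with miR-497-5p, and their part in the AREG and EREG values was not tested. The remaining log2 fold changes ran from -0.1 for ERBB2 to 0.36 for HBEGF (± 0.19, 95% interval -0.03 to 0.74).

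**Figure D3:**
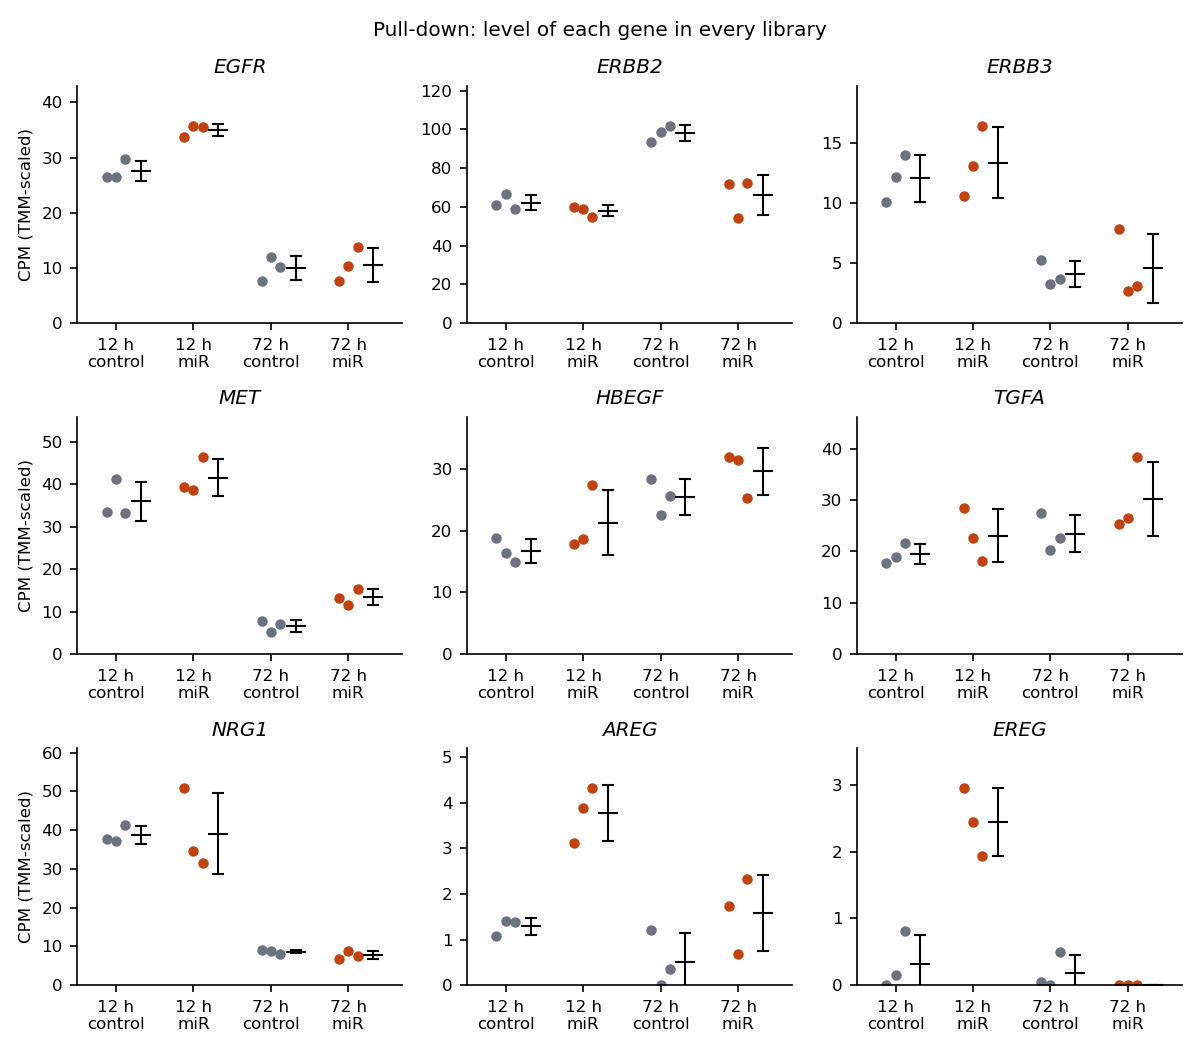
Pull-down level in TMM-scaled CPM (linear axis from 0) of 9 genes in every library, by time and mimic; points are libraries, and the bar is the mean ± SD of 3, clipped at 0. At 72 h MET is at 11.6 to 15.3 CPM with miR-497-5p against 5.13 to 7.78 in control, and ERBB2 at 54.3 to 72.5 against 93.6 to 102; the raised EREG and AREG points at 12 h did not pass the test.

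At 72 h 2 of the 9 genes were called in the pull-down, against 22.7% of all genes tested, and both went in their RNA-seq direction. MET had 7.78, 5.13 and 7.14 CPM in control against 13.2, 11.6 and 15.3 with miR-497-5p. The groups did not overlap, and MET rose 2.02-fold (1.01 ± 0.2, edgeR adjusted p 0.000418). ERBB2 had 93.6, 98.4 and 102 CPM in control against 71.9, 54.3 and 72.5 with miR-497-5p. Its lowest value came from the library with the fewest counts, and ERBB2 fell 1.47-fold (-0.56 ± 0.12, edgeR adjusted p 0.00141). Without that library, and without each of the other 5 in turn, both stayed called.

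The EGFR ligands did not pass in the pull-down at 72 h. HBEGF, called lower in RNA-seq, had 28.5, 22.6 and 25.6 CPM in control against 32.1, 31.6 and 25.3 with miR-497-5p (0.21 ± 0.19, edgeR adjusted p 0.506). AREG had 24, 0 and 7 counts in control against 33, 5 and 41 with miR-497-5p (1.66 ± 0.89, edgeR adjusted p 0.201), and it passed without control replicate 1 (3.25, adjusted p 0.0293). EREG had 1, 0 and 10 counts in control and 0 in all 3 treated libraries, where 0 counts allow up to 0.0682 CPM over the group, for counting error only. TGFA (0.37 ± 0.2), NRG1 (-0.18 ± 0.21), ERBB3 (0.21 ± 0.36) and EGFR (0.08 ± 0.22) had groups that overlapped.

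The difference between the pull-down effects at 72 h and 12 h passed for none of the 9 genes in edgeR, against 12.2% of all genes tested. The smallest values were those of MET (0.81 ± 0.27, edgeR adjusted p 0.0518), EREG (adjusted p 0.0618) and ERBB2 (-0.46 ± 0.17, 0.0939). DESeq2 called 2, MET (0.0235) and EREG (0.0297), where it called 2594 of all 17477 genes tested.

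The share of the libraries that a gene took differed between the assays in control cells. At 72 h NRG1 had 61.1 to 62.8 CPM in RNA-seq and 8.12 to 8.93 in the pull-down, and MET had 23.3 to 26.4 and 5.13 to 7.78. ERBB2 had 30.5 to 31.2 CPM in RNA-seq and 93.6 to 102 in the pull-down. At 12 h the values lay closer, with NRG1 at 50.1 to 53.4 and 37.1 to 41.4 CPM and ERBB2 at 49.3 to 53.1 and 59.1 to 66.5. CPM were scaled within each assay, so these are shares of a library and not amounts of RNA.

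Whether the retained share changed beyond the amount in the cells was tested by subtracting the effect in RNA-seq from that in the pull-down. At 12 h 1 of 9 genes passed, against 1.34% of all 17078 genes tested. EGFR was 1.47-fold higher by this measure (0.56 ± 0.13, edgeR adjusted p 0.0388): its RNA-seq value was -0.19 and its pull-down value 0.35. At both times this fit used a common trend of spread for both assays, although the pull-down spread more. The SE of 0.13 for EGFR lay below the 0.21 of its pull-down value alone, so the p-value may be too small. The call was lost without any 1 of the 6 RNA-seq libraries and without control pull-down replicate 1 or 2, with values of 0.52 to 0.58 and edgeR adjusted p from 0.0753 to 0.147. It was also lost with a replicate block (0.56, edgeR adjusted p 0.0576) and with the block and a length offset (0.36, 0.283), so that it passed under 9 of 19 alternatives. EREG (adjusted p 0.0818) and AREG (1.61 ± 0.55, 0.169) had larger values that did not pass in edgeR, and EREG passed in DESeq2 (0.00514), with no filter (0.000688) and without control pull-down replicate 3 (0.01).

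At 72 h 1 of 8 genes passed, against 14.5% of all 16896 genes tested, EREG and HGF being too low to test. HBEGF was 1.65-fold higher by this measure (0.72 ± 0.18, edgeR adjusted p 0.00986): its RNA-seq value was -0.53 and its pull-down value 0.21. MET had the opposite sign (-0.61 ± 0.2, edgeR adjusted p 0.0516): it was higher in both assays, 3.05-fold in RNA-seq and 2.02-fold in the pull-down. DESeq2 called MET (0.0305) and NRG1 (-0.44, 0.0436), which edgeR gave as -0.44 ± 0.15 (adjusted p 0.0588). EGFR (-0.5 ± 0.24, edgeR adjusted p 0.208) passed without miR-497-5p pull-down replicate 3 (-0.77, adjusted p 0.032).

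**Figure D4:**
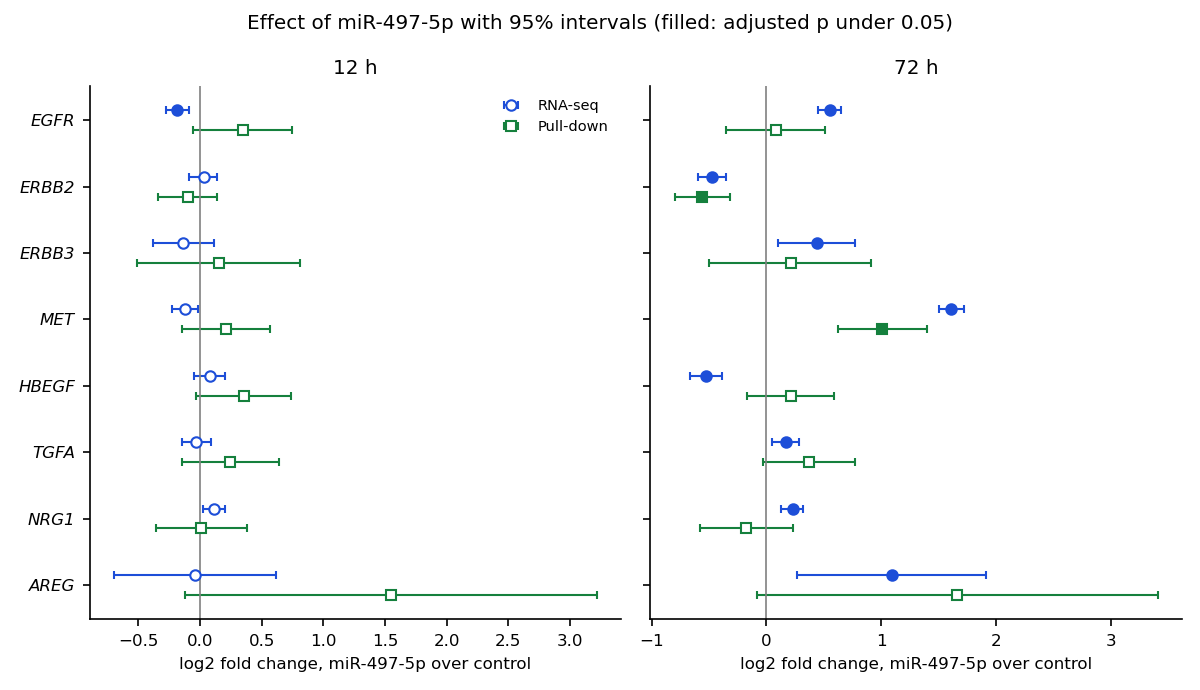
Log2 fold change of miR-497-5p over control for 8 genes at 12 h and 72 h, with 95% intervals from the fits of RNA-seq (circles) and pull-down (squares); filled symbols have an adjusted p under 0.05. At 72 h MET is higher (1.61 and 1.01) and ERBB2 lower (-0.47 and -0.56) in both assays, while HBEGF is at -0.53 in RNA-seq and 0.21 in the pull-down; EREG and HGF are left out for low counts.

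The rest of the pathway was described by 7 lists of other genes, by counts of calls and medians and without a test of the lists. Over all genes tested in RNA-seq at 72 h, 27.9% were higher and 29.6% lower, 57.5% in all, with a median log2 fold change of 0. The other receptors and ligands of both families were scarce. Of 9 such genes (ERBB4, EGF, BTC, EPGN, NRG2, NRG3, NRG4, MST1R and MST1) 6 could be tested in RNA-seq at 72 h, and none passed in edgeR or had an unadjusted p under 0.05. NRG2, a neuregulin, was read at 5.43 ± 0.342 CPM in control and 4.7 ± 0.49 with miR-497-5p.

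Genes that release ligands or activate HGF went both ways at 72 h, with 3 of 10 tested higher and 5 lower (80% called against 57.5% of all genes, median log2 fold change -0.27). ADAM10, a protease that sheds ERBB ligands, rose from 39.7 ± 2.58 to 62.1 ± 2.33 CPM (0.65 ± 0.051, edgeR adjusted p 3.59e-15). ADAM12 rose from 39.7 ± 2.44 to 49.5 ± 0.875 CPM. ADAM17, the main sheddase of several EGFR ligands, fell from 10.8 ± 0.305 to 8.27 ± 0.684 CPM (-0.39 ± 0.085, edgeR adjusted p 0.000111). PLAU, the urokinase that can cleave pro-HGF, fell from 21.9 ± 0.457 to 13.7 ± 0.0902 CPM (-0.67 ± 0.081, 6.83e-10). In the pull-down at 12 h PLAU was the 1 gene of 11 tested that passed (9.09% against 0.595% of all genes), rising from 12.5 to 28.1 CPM (1.17 ± 0.24, edgeR adjusted p 0.019).

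Of the 13 adaptors 5 were higher and 6 lower at 72 h, 84.6% called against 57.5% of all genes, with a median of -0.07. CRK, an adaptor that links receptors to small GTPase exchange factors, rose from 116 ± 2.62 to 214 ± 2.83 CPM (0.88 ± 0.037, edgeR adjusted p 4.94e-25). GRB2, which brings the RAS exchange factor SOS to the receptors, fell from 158 ± 2.52 to 89.8 ± 2.46 CPM (-0.81 ± 0.038, 2.49e-23). VAV2, a guanine nucleotide exchange factor, and SRC, a kinase that acts beside EGFR, also fell (-0.89 ± 0.06 and -0.58 ± 0.047). PTPN11, the phosphatase SHP2, was lower at 12 h (-0.32 ± 0.034, edgeR adjusted p 2.16e-09) and higher at 72 h (0.33 ± 0.034, 1.9e-11). In the pull-down at 72 h CRK rose from 473 to 945 CPM (1 ± 0.084, edgeR adjusted p 2.74e-09).

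Of 15 genes of receptor inhibition, ubiquitination and endosomal sorting 11 were higher and 2 lower at 72 h. That is 86.7% called against 57.5% of all genes, where 27.9% were higher, and the median was 0.20 against 0. With library totals the split was 5 higher and 4 lower, and the median 0.10. CBLB, a ubiquitin ligase that marks receptors for degradation, rose from 9.98 ± 1.3 to 16.5 ± 0.278 CPM (0.72 ± 0.099, edgeR adjusted p 1.87e-08). USP8, a deubiquitinase that takes ubiquitin off receptors at endosomes and so can act against their degradation, rose from 16.9 ± 1.61 to 33.3 ± 1.4 CPM (0.97 ± 0.071, 2.16e-16). PTPN1, a phosphatase of receptor tyrosines, rose from 70.6 ± 3.18 to 98.4 ± 2.47 CPM, and LRIG2, of the LRIG family of membrane regulators, from 5.67 ± 0.477 to 9.93 ± 0.415.

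Of 13 genes of the RAS-ERK cascade 9 were lower and 3 higher at 72 h, with a median of -0.47. That is 92.3% called against 57.5% of all genes, where 29.6% were lower. The split was 10 lower and 1 higher with library totals. MAPK3, the kinase ERK1, fell from 58.2 ± 1.21 to 32.5 ± 1.12 CPM (-0.84 ± 0.054, edgeR adjusted p 2.29e-18). The ERK-activated kinases RPS6KA1 (-1.32 ± 0.069, 2.29e-21) and RPS6KA3 (-0.62 ± 0.042, 2.73e-17) fell as well. NRAS, a RAS GTPase, rose from 87.7 ± 2.41 to 150 ± 6.77 CPM (0.78 ± 0.044, edgeR adjusted p 3.96e-20). Of the same 13 genes 7 were lower and 1 higher in the pull-down of 72 h (61.5% called against 22.7% of all genes), and RPS6KA1 fell from 94.8 to 38.6 CPM (-1.29 ± 0.13, edgeR adjusted p 4.22e-08).

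The PI3K-AKT branch had 3 of 16 genes higher and 4 lower (7 lower with library totals), with a median of -0.04. Its 43.8% called lay below the 57.5% of all genes. AKT2 fell from 231 ± 5.15 to 131 ± 6.72 CPM (-0.82 ± 0.04, edgeR adjusted p 2.17e-22). RICTOR, a subunit of the kinase complex mTORC2, rose from 23.7 ± 0.224 to 35.6 ± 2.38 CPM.

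Genes that ERK signalling is known to induce split, with 6 of 17 higher and 5 lower (8 and 4 with upper-quartile scaling). Their 64.7% called was near the 57.5% of all genes, and the median was 0.07. DUSP6, a phosphatase of ERK, rose from 3.43 ± 0.305 to 22.6 ± 0.271 CPM (2.72 ± 0.11, edgeR adjusted p 8.49e-25). FOSL1, a subunit of the AP-1 factor, fell from 1160 ± 13.6 to 717 ± 15.1 CPM, and MYC, a growth-promoting transcription factor, from 84.9 ± 1.71 to 42.2 ± 2.74. EPHA2, an ephrin receptor, fell from 150 ± 4.99 to 86.9 ± 2.25 CPM (-0.79 ± 0.043, edgeR adjusted p 1.19e-20). In RNA-seq at 12 h 5 of the 17 were higher and 1 lower (3 and 2 with library totals), 35.3% called against 12.5% of all genes. The 5, named after their values were seen, were DUSP5 (0.24), SPRY2 (0.28), ETV5 (0.3), PHLDA1 (0.12) and MYC (0.14, edgeR adjusted p 0.0152). The lower one was SPRED1, an inhibitor of RAS-ERK signalling (-0.3 ± 0.057, edgeR adjusted p 0.000195). Its pull-down level rose at 12 h from 30 to 63.6 CPM (1.08 ± 0.19, 0.00378).

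**Figure D5:**
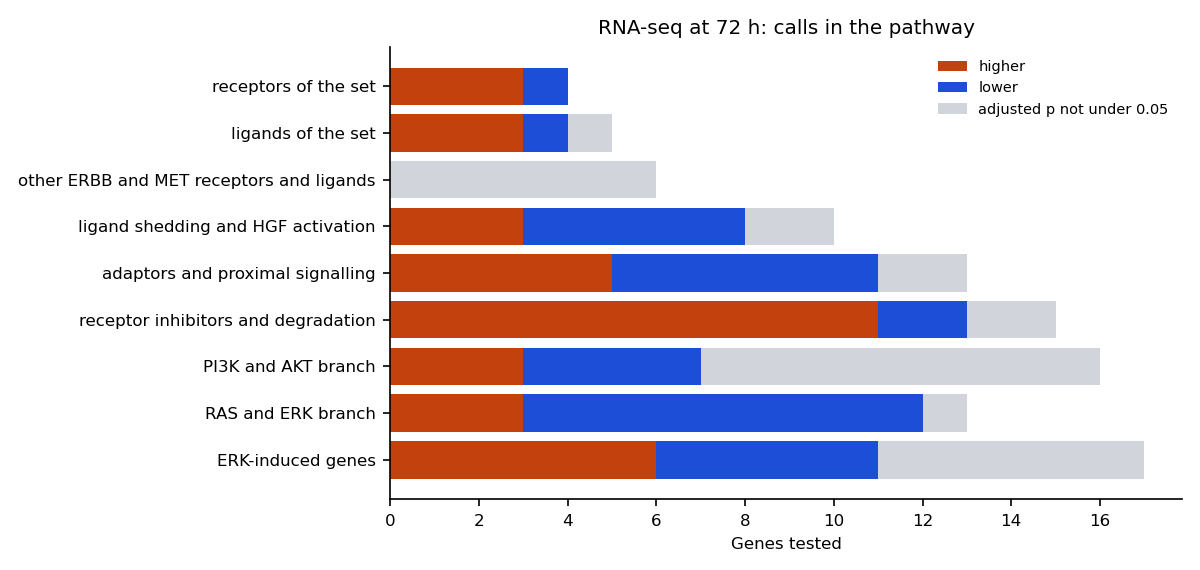
Number of genes called higher (orange), called lower (blue) or with an adjusted p not under 0.05 (grey) in RNA-seq at 72 h, for the receptors and ligands of the set and 7 other lists; the length of a bar is the number tested. The list of receptor inhibition and degradation has 11 of 15 higher, and the RAS-ERK branch 9 of 13 lower.

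Over the 12 RNA-seq libraries the genes whose log2 CPM followed MET most closely, among 10720 with a mean of at least 5 CPM, included RPRD1A (Pearson r 0.993) and RABGGTB (0.993). Those most like HBEGF were ZNF696 (0.978), CSK (0.975) and MED31 (0.973). The 12 libraries fall in 4 groups, so these values mainly compare the levels of the groups and are descriptions.

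On GRCh38 the genes lie as follows, with the identifiers of the files. EGFR (ENSG00000146648) is on chromosome 7 from 55019021 to 55211628, MET (ENSG00000105976) on chromosome 7 from 116672390 to 116798386, and HGF (ENSG00000019991) on chromosome 7 from 81699006 to 81770438. ERBB2 (ENSG00000141736) is on chromosome 17 from 39687914 to 39730426 and ERBB3 (ENSG00000065361) on chromosome 12 from 56079857 to 56103505. AREG (ENSG00000109321, 74445134 to 74455009) and EREG (ENSG00000124882, 74365143 to 74388751) are neighbours on chromosome 4. HBEGF (ENSG00000113070) is on chromosome 5 from 140332843 to 140346631, TGFA (ENSG00000163235) on chromosome 2 from 70447280 to 70554193, and NRG1 (ENSG00000157168) on chromosome 8 from 31639386 to 32767959.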

How the data were processed

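The deposited files hold whole-number counts per gene, 1 file per library. Per the submitters' processing notes, the tools were Trimmomatic 0.36 for trimming, STAR 2.5.2b for alignment to GRCh38 and featureCounts of Subread 1.5.2 for unique reads in exons. No source used here gives the strand setting, so reads of overlapping or antisense genes cannot be told apart. Symbols were found for 56410 of 57500 identifiers (98.1%). The model was that of edgeR 4.0.16, run in R 4.3.3 (TMM, default filter on low counts, robust quasi-likelihood test). Each fit took the 12 libraries of an assay, or those of a time for the comparison of the assays. Benjamini-Hochberg adjustment ran over every gene tested (threshold 0.05). Adjusted p-values come from these fits unless DESeq2 1.42.0 is named. Values after ± are standard errors beside log2 fold changes and SDs of 3 libraries beside CPM. Marker sums use library totals without TMM. The genes and lists were chosen with earlier results of these data known. Of each list the text names genes from the up to 4 with the smallest adjusted p in RNA-seq at 72 h and the first of each other comparison. Some genes that this rule takes are not reported here. Alternatives were library-total and upper-quartile scaling, DESeq2, other filters, only the libraries compared, a replicate block with and without a length offset, and leaving out each library. The fits were tested on simulated counts, with no outcome reported here, so error rates for these data are not given.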

Additional observations from a re-analysis of the deposited data

Results flagged for a closer look

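The effect of miR-497-5p in RNA-seq differed between 72 h and 12 h, by edgeR's test of that difference, for 5 of the 9 genes tested, against 48.8% of all genes tested. On the log2 scale the effect at 72 h minus that at 12 h was 1.73 for MET, 0.74 for EGFR, 0.57 for ERBB3, -0.50 for ERBB2 and -0.61 for HBEGF. For MET and EGFR the 12 h values lay below 0 (-0.12 and -0.19) and the 72 h values above it (1.61 and 0.55). The 12 h value of MET was not called (edgeR adjusted p 0.127). The ERBB3 difference passed under 15 of 19 alternatives.

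The pull-down effect differed from the RNA-seq effect of the same time, by edgeR's test, for EGFR at 12 h (0.56, adjusted p 0.0388) and for HBEGF at 72 h (0.72, adjusted p 0.00986). These tests used a common trend of spread for both assays, although the pull-down spread more, so their p-values may be too small. The HBEGF difference passed under all 19 alternatives run for it, and the EGFR difference under 9 of 19.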

How the results depend on the processing

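The 80 gene results were recomputed under 1280 alternatives in all. Of these, 1163 kept direction and side of the threshold. With direction kept, 41 newly passed and 29 no longer passed. Another 47 changed sign, each of a value that had not been called. They were not sorted by threshold, and among them HBEGF in control cells over time passed with library totals. MET, EGFR, ERBB2, HBEGF and NRG1 in RNA-seq at 72 h, and MET and ERBB2 in the pull-down at 72 h, stayed called under all 14 alternatives run for each. The cause of the changes listed here was not tested. Few reads limit what can be said of HGF, with 0 to 4 counts in each library, and of EREG, with 0 to 3 in each RNA-seq library of 72 h.

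Counts of genes of the set called moved by over 1.5 times as follows. For RNA-seq at 12 h library totals gave 2 in place of 1, and leaving out a library gave 1 to 2. For the pull-down effect at 72 h minus 12 h the count of 0 became 1 with library totals, upper-quartile scaling, no filter or a filter of 1 CPM in 3 libraries, 2 with DESeq2, and 0 to 1 without a library. For the effect beyond the input at 12 h it was 2 in place of 1 with DESeq2 or no filter, and 0 to 2 without a library. At 72 h it was 3 in place of 1 with DESeq2, 2 with no filter or the filter of 1 CPM, and 1 to 3 without a library. Over all genes, calls fell from 2175 to 1433 in RNA-seq at 12 h without control replicate 2. They ranged from 64 to 314 around 104 in the pull-down at 12 h and from 42 to 974 around 229 beyond the input at 12 h.

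Library totals also turned uncalled values of ERBB2 (-0.025 in RNA-seq at 12 h, 0.0171 and 0.0351 beyond the input at 12 h and 72 h), NRG1 (0.0348 beyond the input at 12 h), ERBB3 (-0.035 in the pull-down effect at 72 h minus 12 h) and HBEGF (-0.21 in control cells over time, and -0.0025 there with no filter). They moved the median of all genes by 0.12 and 0.13 beyond the input at 12 h and 72 h, and by no more than 0.1 in the 4 comparisons of the mimics. The share of calls that were higher went from 57.7% to 29.3% in RNA-seq at 12 h, from 48.5% to 38.3% at 72 h and from 54.8% to 82.1% in the pull-down at 12 h. It went from 48.5% to 34.8% in control cells over time, from 73.4% to 91.8% and from 51.5% to 73.6% beyond the input at 12 h and 72 h, and from 48.6% to 37.8% in the pull-down effect at 72 h minus 12 h.

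Leaving out 1 library turned uncalled values within these ranges. In RNA-seq at 12 h they were -0.0456 to 0.0714 for ERBB2, -0.36 to 0.29 for AREG and -0.0685 to 0.019 for TGFA, and at 72 h -3.24 to 3.00 for EREG. In the pull-down they were -0.023 to 0.31 for ERBB3 and -0.20 to 0.13 for NRG1 at 12 h, and -0.18 to 0.28 for EGFR and -0.47 to 0.44 for ERBB3 at 72 h. For the effect at 72 h minus 12 h they were -1.92 to 4.33 for EREG in RNA-seq, and in the pull-down -0.62 to 0.29 for ERBB3, -0.49 to 1.71 for AREG, -0.27 to 0.0905 for HBEGF, -0.10 to 0.28 for TGFA and -0.30 to 0.0337 for NRG1. Beyond the input they were -0.30 to 0.0454 for NRG1 at 12 h, and -0.15 to 0.0132 for ERBB2, -0.0494 to 2.14 for AREG and -0.0258 to 0.32 for TGFA at 72 h. For HBEGF in control cells over time they were -0.0223 to 0.0602.

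The labels do not say that a replicate number marks a shared culture, and same-numbered libraries did not deviate together throughout. Deviations of same-numbered control and treated libraries correlated at 0.041 to 0.174 in RNA-seq at 12 h, 0.002 to 0.012 at 72 h and -0.029 to 0.007 in the pull-down. Those of same-numbered RNA-seq and pull-down libraries correlated at -0.129 to 0.076 at 12 h and -0.017 to 0.011 at 72 h. With a replicate block the count of genes of the set called was unchanged in RNA-seq at 12 h and 72 h and in both pull-down comparisons, 6 in place of 5 for the RNA-seq effect at 72 h minus 12 h, 1 in place of 0 for that of the pull-down and 0 in place of 1 beyond the input at 12 h. The block with a length offset gave 1 and 0 for the last 2 as well. It took EGFR at 12 h to -0.11 in RNA-seq (edgeR adjusted p 0.136) and to 0.36 beyond the input (0.283), ERBB3 to 0.39 in RNA-seq at 72 h (0.0529) and 0.47 in the effect at 72 h minus 12 h (0.0658), and NRG1 at 12 h to 0.18 (0.00618). The block turned NRG1 in the pull-down at 12 h to -0.0037, or -0.13 with the offset. The offset also turned EGFR in the pull-down at 72 h to -0.10 and NRG1 in the RNA-seq effect at 72 h minus 12 h to -0.0624.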
